A study of Mus musculus with 4 samples.

Results

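A set of 9 surface receptor genes of myeloid cells was followed in mouse cultures turning into osteoclasts, the multinucleated cells that resorb bone, with and without an inhibitor of the kinase p38α. The genes were chosen by symbol, as the Fc gamma receptors, some receptors with an inhibitory motif (Pirb, Lilrb4a and Lair1) and 2 Klra genes (Klra2 and Klra17). Earlier results of these data were known at that point, and the table holds further inhibitory receptors and Klra genes. All 9 of 9 symbols matched a row of the deposited table of 23390 gene models. One group received 10 µM BMS-582949, the p38α inhibitor, and the other received DMSO, its solvent. Marrow of C57BL/6J animals, wild-type in all 4 libraries, was first kept for 3 days in L929 cell supernatant (equivalent to 20 ng/ml M-CSF). Adherent macrophages were then replated with 40 ng/ml RANKL, the cytokine that starts osteoclast formation, with RNA taken at day 4. Each group had 2 libraries, and no label ties them to different mice or wells. The p-values below therefore reflect library-to-library spread alone, which may be technical. The test estimates that spread partly from all genes, so a small p or a narrow interval does not rest on a gene's own libraries alone. Library totals were 39255925 and 37455168 counts with BMS-582949 and 35331889 and 36178333 counts with DMSO. Values are whole-culture averages, so fewer cells of a type and less RNA per cell cannot be told apart.

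Fc gamma receptors bind the constant part of immunoglobulin G. The activating forms FcγRI, FcγRIII and FcγRIV signal through the common gamma chain, which carries an activating tyrosine motif (ITAM), and the inhibitory form FcγRIIB carries an inhibitory tyrosine motif (ITIM) that recruits phosphatases. PIR-B, gp49B and LAIR-1 carry ITIMs and restrain activating signals. Paired receptors are inhibitory and activating receptors that resemble each other, such as PIR-B and PIR-A. In osteoclast precursors, ITAM signals act beside RANKL, so both kinds of receptor have been studied for their effect on how osteoclasts form.

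With BMS-582949, 4 of the 9 genes rose (Fcgr2b, Lilrb4a, Lair1 and Fcgr3), 1 fell (Klra17) and 4 did not pass the test (Fcgr1, Fcgr4, Pirb and Klra2). Here and below, rose, fell and called mean that edgeR's quasi-likelihood test over 13214 genes gave an adjusted p (Benjamini-Hochberg) under 0.05, and all 9 had enough counts to be tested. Of all tested genes, 60.2% were called, 30.5% as higher and 29.7% as lower, so a count of 5 of 9 is near the background and is not a result about these receptors as a set. At 2-fold or more, 2 of the 9 rose and 1 fell, against 9.94% and 11.3% of all tested genes. Klra17 had a log2 fold change of -4.14, and 61 of the 13214 tested genes (0.462%) had a lower one. The libraries of both groups did not overlap for 6 of the 9 genes, and for 80.2% of all tested genes. The median log2 fold change was 0.54 over the 9 genes and 0.03 over all tested genes. The former is the value of Fcgr1, which was not called and depends on single DMSO libraries (below).

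**Figure D1:**
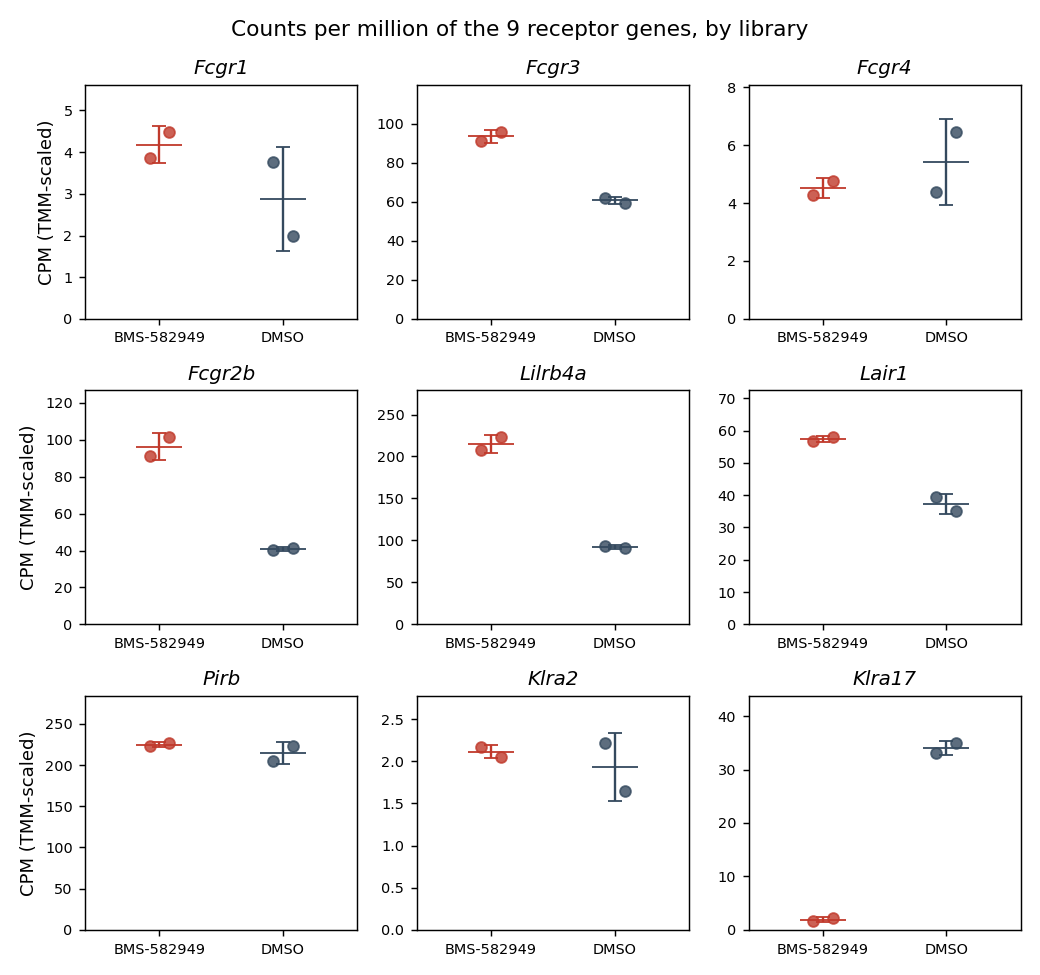
Levels as CPM (counts scaled to library size with TMM, linear axes from 0) of the 9 receptor genes in each library, with BMS-582949 left of DMSO; points are libraries, the long dash is the group mean and the error bar is the SD (n = 2). Fcgr2b, Lilrb4a, Lair1 and Fcgr3 lie higher in both BMS-582949 libraries, Klra17 lies at 1.64 and 2.22 CPM there against 33.1 and 35.0 CPM with DMSO, and the 2 DMSO libraries spread widely for Fcgr1, Fcgr4 and Klra2.

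Fcgr2b, the inhibitory Fc gamma receptor, had the highest log2 fold change of the 9, next to Lilrb4a, whose interval overlapped it. Its level in CPM (counts relative to the TMM-scaled library total) was 91.0 and 101 with BMS-582949, against 40.1 and 41.5 CPM with DMSO. Both treated libraries lay at more than 2 times the level of both DMSO libraries. The means were 96.2 ± 7.38 and 40.8 ± 0.990 CPM (SD, n = 2 each). On the log2 scale the change was 1.24 ± 0.08 (SE, 95% interval 1.07 to 1.40, adjusted p = 3.0e-08).

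Fcgr3, the low-affinity activating receptor, rose less. It measured 91.3 and 95.9 CPM with BMS-582949, against 62.1 and 59.5 CPM with DMSO. The groups did not overlap, and the log2 fold change was 0.62 ± 0.07 (SE, 95% interval 0.48 to 0.77, adjusted p = 5.4e-06). The intervals of Fcgr2b and Fcgr3 did not meet. The genes share sequence, and 9.58% of the distinct 50-base words in Fcgr3 transcripts and 2.92% of those in Fcgr2b transcripts occur in the other gene, so some of their reads could have been split between them.

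Fcgr1, the high-affinity receptor known as CD64, and Fcgr4, an activating receptor for some immunoglobulin G subclasses, were both low. Fcgr1 measured 3.87 and 4.49 CPM with BMS-582949, against 3.76 and 2.0 CPM with DMSO, from 175 and 190 counts with BMS-582949 and 117 and 63 with DMSO. The DMSO libraries lay far apart, with DMSO replicate 1 close to the treated ones. The log2 fold change was 0.54 ± 0.29 (SE, adjusted p = 0.13, 95% interval -0.10 to 1.17). Without DMSO replicate 1 it was 1.07 (adjusted p = 0.0051), without DMSO replicate 2 it was 0.15 (adjusted p = 0.68), and with library size as the only scaling it was 0.92 (adjusted p = 0.018). Over all alternatives the adjusted p ran from 0.0051 to 0.68, so whether Fcgr1 changed rests on single DMSO libraries and on the scaling. Fcgr4 measured 4.29 and 4.77 CPM with BMS-582949, against 4.38 and 6.47 CPM with DMSO. These groups overlapped, and the log2 fold change was -0.26 ± 0.22 (SE, adjusted p = 0.34), with a 95% interval from -0.74 to 0.22. It was 0.05 without DMSO replicate 2 and 0.12 with library size only.

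Relative to its activating counterparts, Fcgr2b had more counts with BMS-582949. The summed counts of the 3 activating genes were 1.09 and 1.04 times those of Fcgr2b with BMS-582949, against 1.75 and 1.64 times with DMSO. Both treated libraries lay below both DMSO libraries. The means were 1.07 ± 0.0398 and 1.69 ± 0.0794 (SD, n = 2 each), a log2 difference of -0.67, and the exact two-sided permutation p was 0.333, the smallest that 2 against 2 libraries allow. Fcgr3 alone over Fcgr2b gave a log2 difference of -0.61 and Fcgr4 alone -1.47.

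Levels of different genes were compared per kilobase of merged exons. Fcgr3 made up 71.8% and 70.6% of the per-length total of the 4 Fc gamma receptors with BMS-582949, against 75.1% and 72.4% with DMSO. Fcgr2b made up 21.5% and 22.4% with BMS-582949, against 14.6% and 15.1% with DMSO. The share of Fcgr4 was 4.66% and 4.85% with BMS-582949, against 7.32% and 10.9% with DMSO. Shares of Fcgr1 were 1.63% to 3.05% in all 4 libraries. The total itself was 73.2 and 78.3 CPM per kilobase with BMS-582949 and 47.6 and 47.4 with DMSO. Exons of all annotated transcripts were merged, 5790 bases for Fcgr2b and 1736 bases for Fcgr3, which lowers the per-length level of a gene whose long transcripts are little used.

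**Figure D2:**
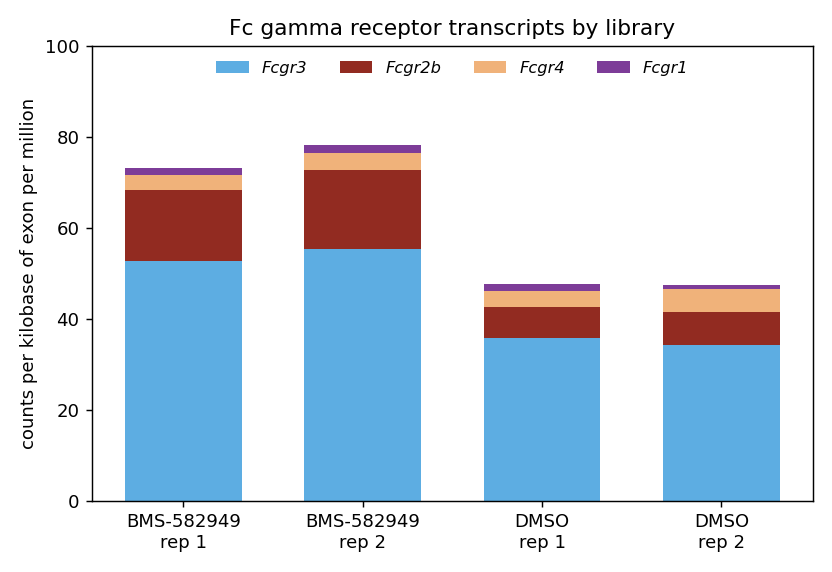
Stacked levels of the 4 Fc gamma receptor genes in each library, as CPM per kilobase of merged exons (linear axis from 0), with the BMS-582949 libraries left of the DMSO libraries. Fcgr3 is the largest block in every bar, and the Fcgr2b block takes 21.5% and 22.4% of the bar with BMS-582949, against 14.6% and 15.1% with DMSO.

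Lilrb4a, which encodes the ITIM receptor gp49B, measured 208 and 223 CPM with BMS-582949, against 93.5 and 90.8 CPM with DMSO. The treated libraries were both above 2 times the DMSO level. The log2 fold change was 1.22 ± 0.06 (SE, adjusted p = 7.7e-09, 95% interval 1.08 to 1.36). Its close relative Lilr4b (also Lilrb4b or gp49A), which lacks the ITIMs, rose too, to 78.8 ± 7.22 CPM with BMS-582949 against 36.7 ± 1.36 CPM with DMSO, a log2 fold change of 1.10. The pair cannot be fully separated in these counts. Lilr4b transcripts hold 26.1% of the 50-base words of Lilrb4a, a read-through model across both genes (Gm49339) holds 33.7%, and 35.9% of the exon length of Lilrb4a overlaps other gene models, among them the antisense Gm40645. With all 3 summed the log2 fold change was 1.23 (adjusted p = 1.8e-08).

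Lair1, a collagen receptor with ITIMs, measured 56.7 and 57.9 CPM with BMS-582949, against 39.3 and 35.0 CPM with DMSO. The groups did not overlap, and the log2 fold change was 0.63 ± 0.08 (SE, 95% interval 0.44 to 0.81, adjusted p = 3.6e-05).

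Pirb encodes PIR-B, an ITIM receptor for MHC class I that is known in mouse to restrain osteoclast formation. It measured 223 and 227 CPM with BMS-582949, against 205 and 224 CPM with DMSO. The libraries overlapped. The log2 fold change was 0.07 ± 0.06 (SE, 95% interval -0.07 to 0.21, adjusted p = 0.37). With library size as the only scaling it was 0.45 (adjusted p = 5.4e-05), where the median of all genes also moved up by 0.38. Over the other alternatives, leaving libraries out included, no call was made for Pirb except where its near-identical relatives were added. The activating PIR-A genes beside it did rise. Pira2 measured 63.6 ± 0.771 CPM with BMS-582949 and 46.2 ± 0.0375 CPM with DMSO (SD, n = 2 each), a log2 fold change of 0.46 (adjusted p = 1.2e-04). Pira1, annotated as Gm15922, had a log2 fold change of 0.60 and Lilra6, which RefSeq also lists as Pira3, one of 0.94. Of the 50-base words of Pirb, 34.0% occur in transcripts of other genes, 17.7% in Gm14548 and 16.8% in Pira2, so the split of reads within this family is uncertain. With the 5 such relatives that the table holds summed into Pirb, the log2 fold change was 0.23 (adjusted p = 0.0079). The sum is incomplete, since further relatives, such as Gm15925 (12.2% of the words) and Gm15931 (10.8%), are not in the table.

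The Klra genes encode Ly49 lectin-like receptors, best known from natural killer cells. Klra17 encodes Ly49Q, an ITIM receptor of myeloid and plasmacytoid dendritic cells that has been described in mouse as a promoter of osteoclast differentiation. It measured 1.64 and 2.22 CPM with BMS-582949, against 33.1 and 35.0 CPM with DMSO. The counts were 74 and 94 in treated libraries and 1029 and 1105 in DMSO libraries, far from overlapping. The means were 1.93 ± 0.414 and 34.1 ± 1.36 CPM (SD, n = 2 each), 17.7-fold lower with BMS-582949. On the log2 scale the change was -4.14 ± 0.16 (SE, 95% interval -4.48 to -3.80, adjusted p = 5.0e-10). It was called lower in every alternative run for it, where its log2 fold change ran from -4.40 to -3.76 for the gene alone.

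Klra2 encodes Ly49B, the other Ly49 receptor here found on myeloid cells. It measured 2.17 and 2.06 CPM with BMS-582949, against 2.22 and 1.65 CPM with DMSO. The libraries overlapped, and the log2 fold change was 0.13 ± 0.31 (SE, adjusted p = 0.75), with a 95% interval from -0.55 to 0.80. At 52 to 98 counts per library no change was detected, and without DMSO replicate 2 the value was -0.07.

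The other Klra and natural killer complex lectin genes were nearly silent. Of 23 such genes in the table, 12 had no count in any library and 2 had enough to be tested. Klra3 had 0 and 0 counts with BMS-582949, against 16 and 35 counts with DMSO. It was called lower, but it passed the count filter through its DMSO libraries alone. A gene let in that way can only be called lower, so the call adds no support. Against a floor of 3 counts per library it was at least 11.8-fold lower with BMS-582949. The DMSO libraries lay apart, and the same limit was 7.5-fold without DMSO replicate 2 and 16.2-fold without DMSO replicate 1. With the whole Klra family summed, the log2 fold change was -3.17. Klra17 made up most of that sum with DMSO (34.1 CPM, against 1.93 CPM for Klra2), so the value largely repeats the fall of Klra17.

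**Figure D3:**
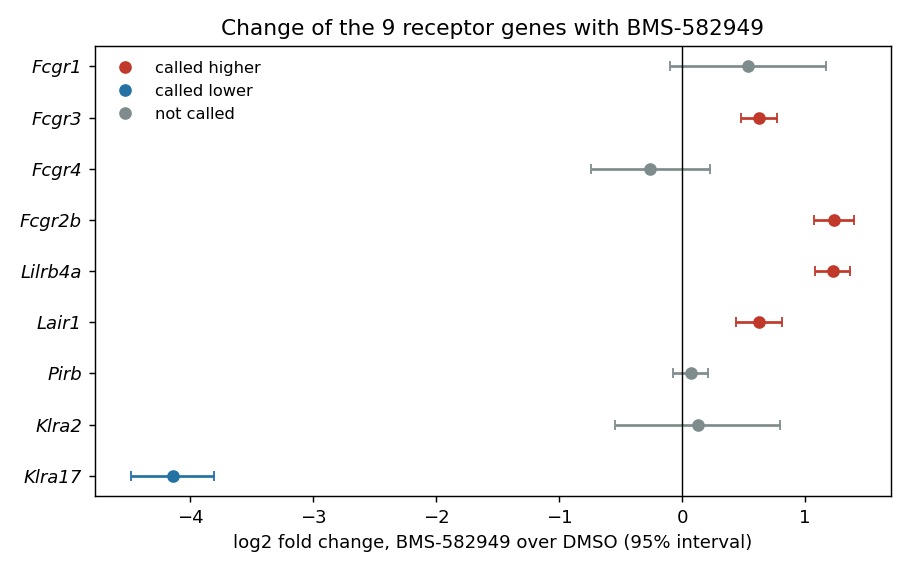
Log2 fold change of BMS-582949 over DMSO for the 9 receptor genes with its 95% interval from the quasi-likelihood fit, activating Fc gamma receptors first and Klra genes last. Fcgr2b (1.24) and Lilrb4a (1.22) lie right of Fcgr3 (0.62) and Lair1 (0.63), the intervals of Fcgr1, Fcgr4, Pirb and Klra2 cross 0, and Klra17 stands alone at -4.14.

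The promoters of both Klra genes are shown since one fell and the other did not pass the test, with those of Fcgr2b and Fcgr3 for the same contrast of a larger and a smaller rise. Each runs 5′ to 3′ on the gene's own strand from 250 bases before to 50 bases after the RefSeq start (GRCm38.p6). They are chr6:129876623-129876922 for Klra17, chr6:131247313-131247612 for Klra2, chr1:170976022-170976321 for Fcgr2b and chr1:171059354-171059653 for Fcgr3, all on the minus strand. Capitals mark matches, on either strand, to GAGGAA (a core letter run of sites for PU.1, a myeloid transcription factor), to TTCNNNGAA (the letters of a STAT site) or to TGANTCA (the letters of an AP-1 site).
Klra17: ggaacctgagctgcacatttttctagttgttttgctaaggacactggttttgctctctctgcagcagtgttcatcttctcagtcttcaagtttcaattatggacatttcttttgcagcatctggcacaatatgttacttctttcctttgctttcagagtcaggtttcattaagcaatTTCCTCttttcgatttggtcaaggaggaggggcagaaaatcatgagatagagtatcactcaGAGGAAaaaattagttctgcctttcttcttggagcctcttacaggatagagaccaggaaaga
Klra2: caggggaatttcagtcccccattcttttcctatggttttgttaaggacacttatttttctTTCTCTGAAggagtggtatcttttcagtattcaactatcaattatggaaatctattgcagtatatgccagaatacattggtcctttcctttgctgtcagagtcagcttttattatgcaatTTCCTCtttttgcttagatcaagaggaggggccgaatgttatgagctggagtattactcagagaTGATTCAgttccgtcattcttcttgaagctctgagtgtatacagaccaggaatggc
Fcgr2b: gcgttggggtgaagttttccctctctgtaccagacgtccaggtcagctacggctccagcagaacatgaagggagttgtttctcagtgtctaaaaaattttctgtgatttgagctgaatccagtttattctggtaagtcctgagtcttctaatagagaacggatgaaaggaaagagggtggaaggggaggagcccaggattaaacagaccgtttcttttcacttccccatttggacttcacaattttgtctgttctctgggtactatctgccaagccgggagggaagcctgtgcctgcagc
Fcgr3: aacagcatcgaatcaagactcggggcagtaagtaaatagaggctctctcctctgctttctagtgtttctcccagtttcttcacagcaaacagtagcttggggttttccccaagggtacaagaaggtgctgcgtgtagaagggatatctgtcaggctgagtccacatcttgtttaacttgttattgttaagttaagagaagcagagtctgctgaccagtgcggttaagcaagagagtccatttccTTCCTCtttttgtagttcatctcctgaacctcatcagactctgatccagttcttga
Klra17 and Klra2 promoters were alike at 229 of 300 bases (76.3%), and the other 27 pairs among the 8 receptor promoters at 45.3% to 54.3%. Both hold GAGGAA letters on the minus strand, at -73 in Klra17 and -70 in Klra2, and Klra17 has a further match at -12. GAGGAA occurred in 7 of the 8 promoters, all but Fcgr2b, and in 28.3% of 32851 promoters of the same length. TTCNNNGAA occurred in Fcgr1 and Klra2 and in 8.30% of all promoters, and TGANTCA in Klra2 and in 7.81%. In searches for further motifs, TTGCNNAA (C/EBP letters) was found in 4 of the 8 and in 10.8% of all, and CANNTG (E-box) in 6 of the 8 and in 72.3%. An ISRE-type motif, of interferon response elements, was found in 1 of the 8 (Fcgr4, at -73) and in 3.44% of all. All motifs were searched on both strands, and matches of different motifs may overlap. Each receptor is read at the first RefSeq start listed for it, while the 32851 promoters may hold several starts of a gene. The Fcgr2b and Fcgr3 windows lie wholly inside their GENCODE gene models, and no other start of these genes was searched. These are letter matches in 1 window and do not show binding.

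On GRCm38, Fcgr2b, Fcgr4 and Fcgr3 lie within 106 kb of chromosome 1 (170958617 to 171064935), with no other model of the table between them. Fcgr4, between the other two, was not called. An antisense model, Gm38204, overlaps 2.68% of the exon length of Fcgr2b. Fcgr1 lies on chromosome 3 (96282909 to 96293969) and Lilrb4a on chromosome 10 (51490956 to 51496611). Pirb and Lair1 bound a stretch of 352 kb on chromosome 7 (3711409 to 4063204) with 5 further models of the table. All 5 were called higher, against 30.5% of all tested genes. Their log2 fold changes were 0.38 (Gm14548), 0.46 (Pira2), 0.53 (Gm15448), 0.60 (Gm15922) and 0.94 (Lilra6). They are the same 5 relatives that were summed with Pirb above. Reads may be split among them and Pirb, so the rises are not all separate. Klra17 (129831154 to 129876672) and Klra2 (131219223 to 131247362) bound a stretch of 1416 kb on chromosome 6 with 10 further models, of which 7 had no count and Klra3 was the only one tested. Counts are sums over whole gene models, with no split into exons, introns or transcripts.

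Per kilobase, the order of the 9 genes differed most for Klra17. With BMS-582949 it ran Fcgr3 (53.9 CPM per kilobase), Pirb (50.3), Lilrb4a (41.2), Fcgr2b (16.6), Lair1 (7.67), Fcgr4 (3.61), Klra17 (1.62), Fcgr1 (1.61) and Klra2 (1.11). In that order Klra17 and Fcgr1 overlapped and no other neighbours did. With DMSO it ran Pirb (47.9), Fcgr3 (35.0), Klra17 (28.6), Lilrb4a (17.6), Fcgr2b (7.06), Lair1 (4.97), Fcgr4 (4.32), Fcgr1 (1.11) and Klra2 (1.02). There the libraries of Lair1 and Fcgr4 overlapped, as did those of Fcgr1 and Klra2. Klra17 thus held rank 7 with BMS-582949 and rank 3 with DMSO.

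Among 8414 other named genes of at least 10 CPM, those nearest to Fcgr2b in pattern were Limd2, Cebpb, which encodes the transcription factor C/EBPβ, and Slc11a1, a metal transporter gene of phagosomes. Their root mean square difference of centred log2 CPM from Fcgr2b over the 4 libraries was 0.02 each. Nearest to Klra17 were Mustn1, Esyt3 and the histone gene Hist2h3c1, at 0.16, 0.18 and 0.20. Mustn1 averaged 1.64 ± 0.158 CPM with BMS-582949 and 25.3 ± 2.28 CPM with DMSO (SD, n = 2 each). The measure rests on 2 groups that share these libraries, and any gene with a like fold change scores as near.

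The signalling partners moved both ways, as did all tested genes (30.5% higher and 29.7% lower). Fcer1g, the common gamma chain of the activating Fc gamma receptors and of PIR-A, had 249 and 285 CPM with BMS-582949, against 342 and 318 CPM with DMSO. Its log2 fold change was -0.31 ± 0.07 (SE, adjusted p = 0.0032), and with library size only it was 0.07 (adjusted p = 0.38). The related adaptor Tyrobp (DAP12) fell by 1.22 and the kinase Syk, which both adaptors recruit, by 0.82 on the log2 scale. Among 5 tested genes of other Fc receptors and subunits, 1 rose and 2 fell. Fcgrt, the neonatal Fc receptor that recycles immunoglobulin G, averaged 29.2 ± 0.806 CPM with BMS-582949 and 135 ± 2.38 CPM with DMSO (log2 fold change -2.21), and Trim21, a cytosolic Fc receptor, rose by 1.17.

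Of 20 tested paired activating receptors 17 rose, 1 fell and 2 were not called, against 30.5% higher and 29.7% lower of all tested genes. Their median log2 fold change was 1.08, against 0.03 over all tested genes. Pira1, Pira2, Lilra6 and Lilrb4b count singly among them, though reads may be split between such relatives. The rises are therefore not all separate, and shared words were counted only for the 9 receptors. Clec5a, a DAP12-coupled lectin, averaged 59.3 ± 2.68 CPM with BMS-582949 and 15.1 ± 0.453 CPM with DMSO, and Sirpb1a had a log2 fold change of 1.93. Oscar, the gamma-chain-coupled receptor of osteoclasts, was the gene that fell, to 81.1 ± 4.11 CPM with BMS-582949, against 727 ± 11.5 CPM with DMSO. Other inhibitory receptors were split, with 7 of 20 higher, 6 lower and 7 not called (median 0.12), near the shares over all tested genes. Cd33 and Siglece, which bind sialic acid, rose by 2.47 and 2.02 on the log2 scale. Cd5 averaged 2.09 ± 0.209 CPM with BMS-582949 and 21.9 ± 1.69 CPM with DMSO, a log2 fold change of -3.39, and Vsir, the checkpoint receptor VISTA, one of -1.23. Sirpa, the receptor for CD47, had one of -0.04 (adjusted p = 0.65), and of 0.34 with library size only (adjusted p = 7.5e-04).

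Phosphatases and adaptors of ITIM signalling were also split, with 7 of 18 higher, 7 lower and 4 not called (median -0.03), and 11 higher with library size only. Of all tested genes, 30.5% were higher and 29.7% lower, so a split is not particular to the lists of this paragraph. Ptpn6, which encodes the phosphatase SHP-1, rose by 0.38 (adjusted p = 1.9e-04). Inpp5d, which encodes SHIP-1, the phosphatase that FcγRIIB recruits, changed by -0.13 ± 0.08 on the log2 scale (SE, adjusted p = 0.18), and by 0.26 with library size only (adjusted p = 0.013). Pag1 and Dok2 rose by 1.44 and 1.19, and Cblb and Dok3 fell by 1.65 and 1.32. Among 27 kinases and effectors of Fc gamma receptor phagocytosis, 9 rose, 11 fell and 7 were not called (median -0.06), and with library size only 16 rose. The Src-family kinase Fgr rose by 1.25 and the lipid kinase Pik3cg by 1.69, while Rac2 fell by 2.28 and Src by 2.05. Of 23 tested ligands of the paired receptors, 13 rose, 9 fell and 1 was not called (median 0.41). The share called over all tested genes was lower, at 60.2%. The MHC class I genes H2-Q7 and H2-Q4 rose by 2.15 and 1.66, Cd200 fell by 2.47, and Itgb3, a subunit of the integrin that binds gp49B, fell by 1.90. Further MHC class I genes of the list differed, with H2-K1 higher (0.74), H2-D1 not called (-0.06) and H2-T23 lower (-1.36).

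**Figure D4:**
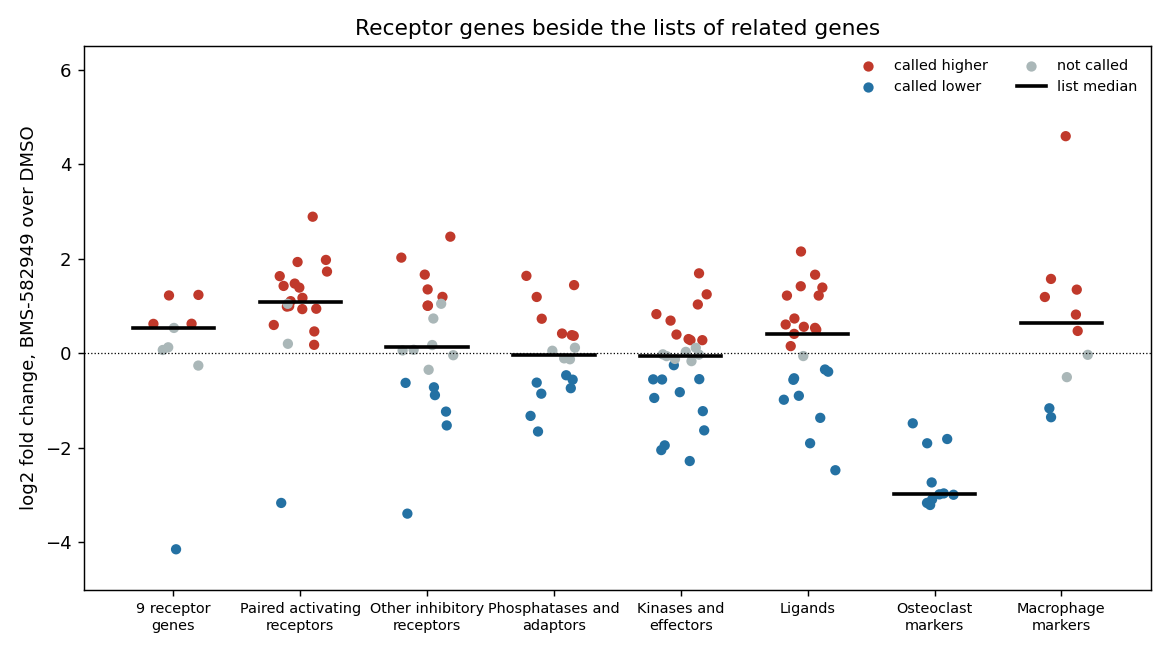
Log2 fold change of BMS-582949 over DMSO for each tested gene of the 9 receptors, of 5 lists of related genes and of osteoclast and macrophage markers; points are genes, coloured by call, black lines are list medians and horizontal spread has no meaning. Paired activating receptors have a median of 1.08 and 1 low gene (Oscar at -3.16), and Klra17 lies below all 10 osteoclast markers, whose median is -2.97 and lowest value -3.21 (Acp5).

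Cell type markers were read beside these results. All 10 osteoclast markers fell, against 29.7% of all tested genes. Their summed levels were 12156 and 12315 CPM with BMS-582949, against 99133 and 103354 CPM with DMSO. Of 10 macrophage markers 6 rose and 2 fell, against 30.5% and 29.7% of all tested genes. Their summed levels were 11145 and 11922 CPM with BMS-582949, against 10577 and 10802 CPM with DMSO. The part of these shifts in the receptors' changes was not tested. Oscar and Itgb3 are in the osteoclast list and in a list above. Natural killer and T cell markers summed to 0.133 and 0.142 CPM with BMS-582949 and to 0 and 0.254 CPM with DMSO, with Ncr1, Cd3e, Cd3g and Prf1 at 0 in all 4 libraries. Among genes used to mark plasmacytoid dendritic cells, Siglech was at 0 in all 4 libraries, Ccr9 had 3 and 3 counts with BMS-582949 and 0 and 0 with DMSO, and Ly6d had 0 and 6 counts with BMS-582949 and 4 and 4 with DMSO. Tcf4, a further such gene, rose, with 1179 and 1177 counts with BMS-582949 and 507 and 404 with DMSO. The dendritic cell list of 11 genes, Tcf4 included, summed to 43.0 and 44.9 CPM with BMS-582949 and 44.0 and 46.8 CPM with DMSO. Of its 3 tested genes 1 was higher (Tcf4) and 1 lower, with a median log2 fold change of -0.79. The near-equal sums therefore hold changes in both directions. B cell markers summed to 4.73 and 3.38 CPM with BMS-582949 and 3.60 and 4.50 CPM with DMSO, with 0 of 3 tested genes called. Neutrophil markers summed to 33.2 and 36.2 CPM with BMS-582949 and 36.9 and 35.6 CPM with DMSO, with Ly6g at 0 in all 4 and 1 of 8 tested genes higher and 3 lower. Of 8 mast cell and basophil genes 1 was tested and fell, at summed levels of 0.575 and 0.851 CPM with BMS-582949 and 1.32 and 0.919 CPM with DMSO. Of 8 tested stromal genes 1 rose and 5 fell, at 985 and 955 CPM with BMS-582949 and 1195 and 1084 CPM with DMSO.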

How the data were processed

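Libraries were made from TRIzol RNA with a Hieff mRNA kit, per the labels' protocols. The authors deposited whole-number read counts for each gene model, without normalization. Trimmomatic 0.36, HISAT2 2.0.4, DESeq2 1.30.1 and the build GRCm38 are named in the submitters' processing notes, without roles. How reads were assigned to genes (tool, annotation, strand) is not given in the sources used here. Since the treatment protocol names the compound for all 4 samples, groups came from the treatment label (titles spell the compound BMS-584929), and exposure is given as 3 or as 4 days.

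Symbols and exons came from GENCODE M21 (22022 of 22036 Ensembl identifiers matched). Genes were filtered with filterByExpr (minimum count 10), scaled by TMM and tested with edgeR 4.0.16 in R 4.3.3 (quasi-likelihood, no covariates, 2 residual degrees of freedom, Benjamini-Hochberg over all genes). CPM uses TMM-scaled library sizes, and an SE is the log2 fold change over the square root of F. DESeq2 1.42.0 and limma 3.58.1 (voom) were alternatives, with other scalings and filters, a block by replicate number, and fits without each library in turn. The 2 libraries of a group differed by more than sampling noise (chi-square over its degrees of freedom, 12.4 for BMS-582949 and 8.75 for DMSO) and counted as 2 each. Counting error is small at these depths for the genes with most counts, and reads without molecular identifiers are not independent molecules. Words of 50 bases were compared between GENCODE transcripts. Promoter sequences are from RefSeq (GRCm38.p6), with 8 of 9 genes matched, and were aligned with biopython 1.88.

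The receptors and lists were chosen with earlier results of these data known. All 9 receptors are named whatever their result, with up to 2 called genes per direction and list of at least 1 CPM, the partner genes Fcer1g, Tyrobp, Ptpn6, Inpp5d, Syk, Lilrb4b, Sirpa and Pira, and 3 genes nearest in pattern to the largest riser and faller. Klra3, Gm14548, Gm15448, Gm49339, Lilra6, H2-K1, H2-D1 and H2-T23 were named after their values were seen. Single cell type markers were also named outside this rule. Acp5 was named as the lowest osteoclast marker, and Ncr1, Cd3e, Cd3g, Prf1, Siglech and Ly6g as genes without counts. Ccr9, Ly6d and Tcf4 were named as further plasmacytoid dendritic cell genes. Of 250 list entries, 240 matched the table.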

Additional observations from a re-analysis of the deposited data

How the results depend on the processing

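The calls of Fcgr2b, Fcgr3, Lilrb4a, Lair1 (higher) and Klra17 (lower) held under every alternative run for each. Of 129 alternative values for single receptors, 122 kept direction and side of the threshold, 4 became called and 3 changed sign. The sign changes were Fcgr4, at 0.12 with library size only and 0.0515 without DMSO replicate 2 (-0.51 to 0.0515 over libraries left out), and Klra2, at -0.0708 without DMSO replicate 2 (-0.0708 to 0.36 over libraries left out). Neither was called in any alternative. The values that became called were Fcgr1 and Pirb with library size only, Fcgr1 without DMSO replicate 1, and Pirb with its relatives summed. With library size only, the all-gene median moved up by 0.38, with 6738 genes higher and 2240 lower, where TMM gave 4035 and 3919. Under it 6 receptors were called higher, other Fc receptors had 2 higher and 1 lower, phosphatases and adaptors 11 higher, and kinases and effectors 16 higher. At 2-fold or more, 1314 genes were higher and 1499 lower, with 2 receptors higher (Fcgr2b and Lilrb4a) and 1 lower (Klra17). With at least 1 CPM in 2 libraries, 0 of the other Klra and lectin genes were called lower, since Klra3 was not tested. The log2 difference of the activating to inhibitory ratio was -1.47 with Fcgr4 alone, and -0.72 to -0.62 over libraries left out. Leaving out a library leaves 1 in its group, which is then assumed to vary like the other group.

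With a replicate block, 4 receptors were higher and 1 lower, and 3923 and 3830 genes. Same-numbered libraries deviated with a correlation of -0.15 over 11630 genes, so nothing shows that the numbers pair them. A crossed block, added after seeing the data, gave 4163 and 4038 genes. A run without the models named NewGene, added likewise, left 4 receptors higher and 1 lower. Fcgr1, Fcgr4 and Klra2 had 52 to 204 counts per library, the fewest of the receptors beside Klra17 with BMS-582949, and their DMSO libraries lay apart (117 and 63 counts for Fcgr1, 136 and 204 for Fcgr4, 69 and 52 for Klra2). The parts of depth and of spread between libraries were not tested.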
